A study of Mus musculus with 6 samples.

Results

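The genes described here are 10 members of the NRF2 and antioxidant defence system, taken from the deposited table by gene name. They are Nfe2l2, Keap1, Nqo1, Gclc, Gclm, Txnrd1, Srxn1, Hmox1, Cat and Sod1. All 10 were found among the 54532 genes of the table, and all 10 were among the 13377 genes that passed the filter on low counts and were tested. Liver RNA was sequenced from 6 male C57BL/6J mice made insulin resistant (IR) by a high-fat diet, begun at 8 weeks of age and given for 6 weeks. After a 16 h fast, 3 mice received insulin at 0.75 units per kg body weight by intraperitoneal injection (IR insulin) and 3 received its carrier, bovine serum albumin (IR vehicle). Livers were taken 6 h later, and each library came from 1 mouse. All 6 mice had been fed the high-fat diet and fasted, so the comparison asks what insulin changes within the insulin-resistant state.

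NRF2, encoded by Nfe2l2, is a transcription factor that switches on genes for detoxification, glutathione synthesis and thiol reduction. In unstressed cells KEAP1 holds NRF2 and presents it to a CUL3 ubiquitin ligase for degradation, and oxidants or electrophiles that modify KEAP1 cysteines release it. NRF2 then pairs with a small MAF protein on antioxidant response elements, where BACH1 can compete as a repressor. NRF2 is controlled largely at the level of its protein, so the levels of its target transcripts are the usual readout of its activity. Hepatocytes also carry high constitutive levels of catalase and of the cytosolic superoxide dismutase, which remove hydrogen peroxide and superoxide.

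The core of the antioxidant response element, TGACNNNGC, was searched on both strands in the promoter windows of RefSeq (GRCm38.p6), which run from 250 bases before to 50 bases after each start site. Windows were held for 8 of the 10 members, with 3 start sites for Txnrd1. Gclc and Hmox1 had no entry. The core was present in at least 1 window of 5 of these 8 members, against 14.0% of all 27025 genes. By window it was present in 5 of the members' 10, against 12.4% of all 32851 windows. The matches are shown because these letters are the core of the element through which the system is known to act. Only the core was searched, and the bases around it were not scored. Each is written 5′ to 3′ on the strand that carries the core, which was the minus strand of the genome in each case, with the core in capitals and 10 bases on either side.
Nfe2l2, chr2:75704885-75704913: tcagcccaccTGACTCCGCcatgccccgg
Srxn1, chr2:152105542-152105570: tgtctcactcTGACCTAGCtgcccactgc
Gclm, chr3:122245413-122245441: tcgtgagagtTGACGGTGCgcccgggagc
Txnrd1, chr10:82859104-82859132: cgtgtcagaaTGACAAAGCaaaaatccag
Sod1, chr16:90220696-90220724: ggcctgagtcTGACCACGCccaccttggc
The centre of the core lay 236, 130, 88 and 52 bases before the start site in Nfe2l2, Gclm, Txnrd1 (the second of its 3 listed sites) and Sod1, and 32 bases after it in Srxn1. No match was found in the windows of Keap1, Nqo1 and Cat, which says only that these letters are not in these windows. A match is a description of the sequence and was not tied to binding.

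Library totals ran from 18449986 to 21827619 counts. Levels are given as CPM, the count of a gene scaled to the size of its library with TMM normalization between libraries, and differences as log2 fold changes of IR insulin over IR vehicle with their standard error (SE) from edgeR's quasi-likelihood fit. Replicate 2 of IR vehicle stood apart from the other libraries. Its deviation from the median of the other 5 libraries fell with the GC content of the transcript by 1.17 on the log2 scale per 10 percentage points, against slopes of −0.0691 to 0.197 in the others. The 6 hepatocyte markers were detected in every library, with a summed level of 54434 to 156419 CPM, the highest in IR vehicle replicate 2.

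None of the 10 members passed a test of IR insulin against IR vehicle. No gene of the 13377 tested reached an adjusted p under 0.05 (0%; edgeR, Benjamini-Hochberg adjustment, and also 0 by DESeq2 and by limma voom), and 383 had an unadjusted p under 0.05. The criteria of the study, an unadjusted p under 0.05 and a log2 fold change of 0.35 or more in either direction, were met by these 383 genes (2.86%), 134 higher (1%) and 249 lower (1.86%), and by 0 of the 10 members. With an offset for GC content the split was 97 higher and 389 lower. The members' adjusted p values ran from 0.852 to 0.945. Fold changes were above 0 on the log2 scale for 4 members and below 0 for 6, with a median of −0.06, beside a median of −0.02 over all genes tested. Of the 6 hepatocyte markers 1 was lower and 0 higher by the same criteria. In whole liver, fewer cells of a type and less RNA per cell cannot be told apart.

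**Figure D1:**
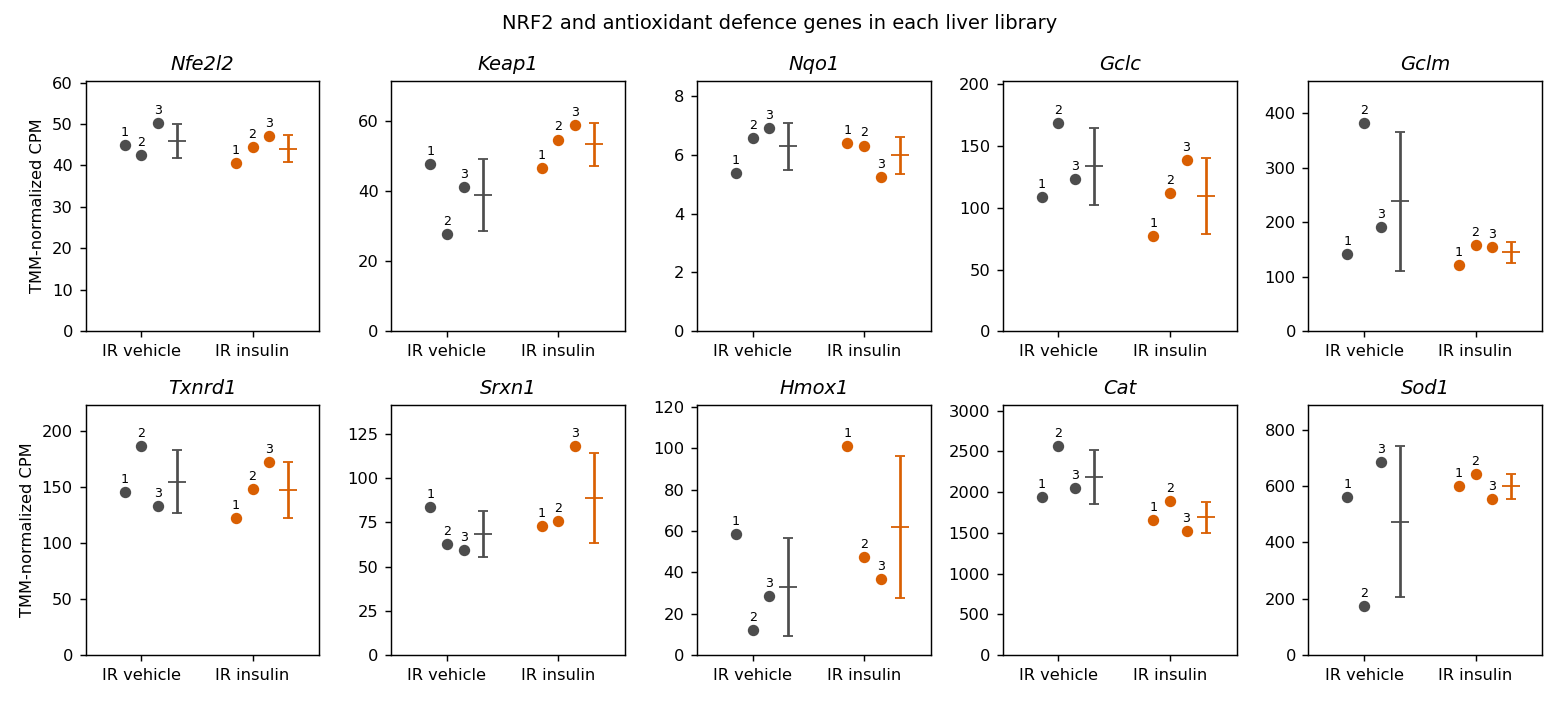
TMM-normalized CPM of each member in the 3 IR vehicle and 3 IR insulin libraries; numbers beside the points are replicate numbers, and the bar at the right of each group is the mean with its SD (n = 3). The groups overlap for every member except Cat, and IR vehicle replicate 2 lies far from its group for Gclm (383 CPM) and Sod1 (174 CPM).

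The transcripts of the regulators came first. Nfe2l2 (chromosome 2, 75675513 to 75704641, minus strand, build 38) was at 44.9, 42.4 and 50.3 CPM in IR vehicle replicates 1, 2 and 3 and at 40.6, 44.4 and 47.1 CPM in IR insulin. It was the steadiest of the 10, with the highest library 1.19 times the lowest in IR vehicle and 1.16 times in IR insulin, and the groups overlapped throughout. With insulin it changed by −0.06 ± 0.20 on the log2 scale (SE; unadjusted p = 0.778), and the 95% interval ran from −0.52 to 0.40. Changes of Nfe2l2 within these bounds were not excluded with 3 mice a group, and the smallest detectable change was not computed.

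Keap1 (chromosome 9, 21229730 to 21239361, minus strand), the sensor that restrains NRF2, was at 47.6, 27.6 and 41.2 CPM in IR vehicle and at 46.6, 54.6 and 58.6 CPM in IR insulin. The groups met at IR vehicle replicate 1, which was above IR insulin replicate 1. Keap1 had a fold change of 0.46 ± 0.26 on the log2 scale (SE; interval −0.14 to 1.05; unadjusted p = 0.116). Keap1 had the highest GC content of the members at 58.0%, and IR vehicle replicate 2 was its lowest library. Without that library the log2 fold change was 0.27 (unadjusted p = 0.15), and with an offset for GC content it was 0.01 (unadjusted p = 0.98). An exon of Gm16754 on the opposite strand overlaps Keap1, and whether counting used strand was not stated, so its count is uncertain.

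The ratio of Keap1 to Nfe2l2 counts within a library, into which no scaling between libraries enters, was 1.06, 0.652 and 0.819 in IR vehicle and 1.15, 1.23 and 1.24 in IR insulin. The ratio was higher in all 3 insulin libraries, at 1.21 ± 0.0524 against 0.843 ± 0.204 (SD, n = 3). With 3 libraries a group the smallest two-sided p of an exact permutation test is 0.10, so no separation of this kind can pass 0.05. Setting IR vehicle replicate 2 aside could not undo this separation, so it is no check of it. The ratio of Keap1 to Nfe2l2 was among 3 ratios computed, which were chosen after the values were seen. The transcripts differ in GC content (58.0% and 46.8%), and with an offset for GC content the log2 fold changes of Keap1 and Nfe2l2 were both 0.01. No background over other pairs of genes was computed.

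**Figure D2:**
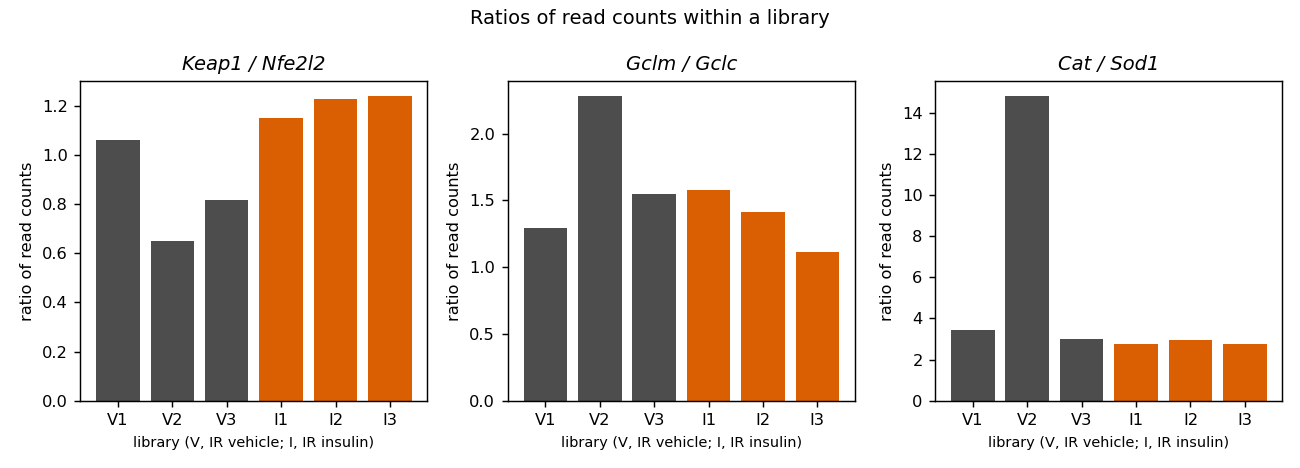
Ratio of read counts of 2 members within each library (V, IR vehicle; I, IR insulin; numbers are replicates). Keap1 over Nfe2l2 was higher in each insulin library than in any vehicle library, Gclm over Gclc overlapped, and Cat over Sod1 reached 14.8 in IR vehicle replicate 2 against 2.74 to 3.45 elsewhere.

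Nqo1, Gclc, Gclm, Txnrd1, Srxn1 and Hmox1 are known targets of NRF2. Nqo1 (chromosome 8, 107388225 to 107403206, minus strand) encodes the quinone reductase that is the most widely used marker of NRF2 activity. It was at 5.39, 6.57 and 6.92 CPM in IR vehicle and 6.39, 6.32 and 5.26 CPM in IR insulin, from 102 to 146 reads a library. The values of the groups were interleaved, and the difference was −0.07 ± 0.26 on the log2 scale (SE; interval −0.67 to 0.53; unadjusted p = 0.791).

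Gclc and Gclm encode the catalytic and the modifier subunit of glutamate-cysteine ligase, the rate-limiting enzyme of glutathione synthesis. Gclc (chromosome 9, 77754535 to 77794485, plus strand) was at 109, 169 and 123 CPM in IR vehicle and 77.4, 112 and 139 CPM in IR insulin. The lowest value was in IR insulin replicate 1 and the highest in IR vehicle replicate 2, and the other 4 overlapped. Its log2 fold change was −0.29 ± 0.29 (SE; interval −0.96 to 0.39; unadjusted p = 0.353). Without IR vehicle replicate 2 it was −0.08 (unadjusted p = 0.752), and without IR insulin replicate 1 it was −0.09 (unadjusted p = 0.803).

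Gclm (chromosome 3, 122245557 to 122270732, plus strand) had the smallest unadjusted p of the members. Its values were 141, 383 and 191 CPM in IR vehicle and 122, 158 and 154 CPM in IR insulin. IR vehicle replicate 2 stood alone at the top, and IR vehicle replicate 1 lay within the insulin values. Its fold change was −0.72 ± 0.38 on the log2 scale (SE; interval −1.59 to 0.15; unadjusted p = 0.0926). It became −0.19 (unadjusted p = 0.363) without IR vehicle replicate 2 and −0.99 (unadjusted p = 0.0270, adjusted p = 0.506) without IR vehicle replicate 1. With an offset for GC content it was −0.40 (unadjusted p = 0.155), and with voom −0.19 (unadjusted p = 0.445). The adjusted p of Gclm was at least 0.506 under all 14 alternatives. With IR vehicle replicate 1 left out, 9.81% of all genes then tested met the study's criteria. Exons of Gm17494 on the opposite strand and Gm6061 on the same strand overlap Gclm, so its count is uncertain. The ratio of Gclm to Gclc counts was 1.71 ± 0.509 in IR vehicle and 1.37 ± 0.239 in IR insulin (SD, n = 3), and the groups overlapped.

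Txnrd1 and Srxn1 serve thiol reduction. Txnrd1 (chromosome 10, 82833951 to 82897712, plus strand) encodes the cytosolic thioredoxin reductase, a selenoprotein that returns thioredoxin to its reduced form. It was at 145, 186 and 133 CPM in IR vehicle and 122, 148 and 172 CPM in IR insulin, interleaved, and its fold change was −0.07 ± 0.24 on the log2 scale (SE; interval −0.64 to 0.49; unadjusted p = 0.774). Srxn1 (chromosome 2, 152105516 to 152111376, plus strand) encodes sulfiredoxin, which repairs overoxidized peroxiredoxins. Its values were 83.5, 62.8 and 59.2 CPM in IR vehicle and 73.0, 75.6 and 118 CPM in IR insulin. IR insulin replicate 3 was the highest, and IR vehicle replicate 1 was above the other insulin libraries. The log2 fold change of Srxn1 was 0.38 ± 0.27 (SE; interval −0.26 to 1.01; unadjusted p = 0.206). It was 0.13 (unadjusted p = 0.67) without IR insulin replicate 3, 0.16 (unadjusted p = 0.551) when GC content was offset and 0.09 (unadjusted p = 0.736) with voom.

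Hmox1 (chromosome 8, 75093621 to 75100589, plus strand) encodes the inducible haem oxygenase, which is expressed in liver macrophages as well as in stressed hepatocytes. It had the widest spread of the members, with the highest library 4.92 times the lowest in IR vehicle and 2.75 times in IR insulin. Its values were 58.6, 11.9 and 28.5 CPM in IR vehicle and 101, 47.6 and 36.9 CPM in IR insulin. IR insulin replicate 1 was the highest, IR vehicle replicate 1 was second, and IR vehicle replicates 2 and 3 were below all insulin libraries. The fold change of Hmox1 was the largest among the members, 0.91 ± 0.59 on the log2 scale (SE; interval −0.45 to 2.27; unadjusted p = 0.162). Without IR vehicle replicate 1 it was 1.62 (unadjusted p = 0.0306, adjusted p = 0.506), without IR vehicle replicate 2 it was 0.51 (unadjusted p = 0.323) and without IR insulin replicate 1 it was 0.36 (unadjusted p = 0.566). The adjusted p of Hmox1 was at least 0.506 under all 14 alternatives. With IR vehicle replicate 1 left out, 9.81% of all genes then tested met the study's criteria.

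The 8 macrophage markers were read beside Hmox1. All 8 were detected in every library, and none passed the criteria of the study. Their summed level was 269 to 446 CPM in IR vehicle and 317 to 598 CPM in IR insulin, with IR insulin replicate 1 the highest and IR vehicle replicate 2 the lowest, as for Hmox1. The sum includes Marco, given below, and without Marco IR vehicle replicate 2 was not the lowest library. The sum and Marco were therefore not separate comparisons with Hmox1. IR vehicle replicate 3, which was low for Hmox1, had the second highest sum of all 6 libraries. Of the 8 markers, 4 had log2 fold changes above 0 and 4 below, with a median of 0.07. Marco, a scavenger receptor of macrophages picked out of these 8 after its values were seen, was at 74.2, 7.37 and 9.11 CPM in IR vehicle and 135, 58.7 and 65.8 CPM in IR insulin. As with Hmox1, IR insulin replicate 1 and IR vehicle replicate 1 were the highest libraries and IR vehicle replicates 2 and 3 the lowest. Marco differed by 1.51 ± 0.86 on the log2 scale (SE; unadjusted p = 0.115) and did not pass. The part of macrophage content in the Hmox1 values was not tested.

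**Figure D3:**
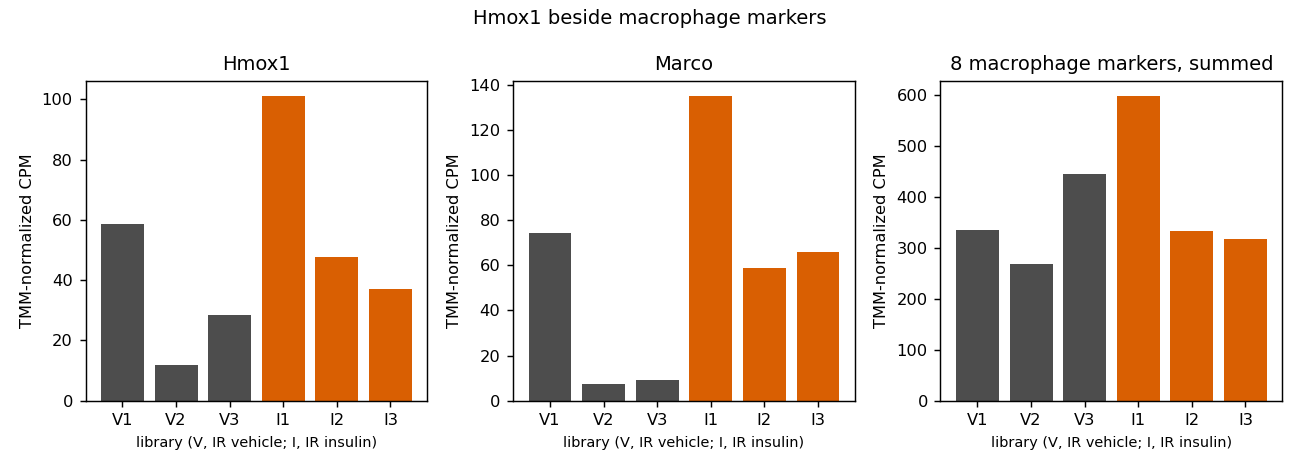
TMM-normalized CPM by library (V, IR vehicle; I, IR insulin; numbers are replicates) of Hmox1, of Marco and of 8 macrophage markers summed. IR insulin replicate 1 is the highest library in all 3 panels, and IR vehicle replicates 2 and 3 are the lowest for Hmox1 and Marco. For the sum of the 8 markers, IR vehicle replicate 3 is the second highest. Marco was picked out of the 8 after its values were seen and is part of the sum.

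Cat and Sod1, the enzymes that remove hydrogen peroxide and superoxide, were the most abundant members. Cat (chromosome 2, 103453849 to 103485160, minus strand) was at 1945, 2561 and 2053 CPM in IR vehicle and 1656, 1892 and 1517 CPM in IR insulin. All 3 insulin libraries were below all 3 vehicle libraries, and Cat was the 1 member of 10 whose groups did not overlap. Among all genes tested 12.3% had groups that did not overlap, 6.04% with insulin lower and 6.25% with insulin higher. The mean level was 2187 ± 329 CPM for IR vehicle and 1689 ± 189.5 CPM for IR insulin (SD, n = 3). On the log2 scale Cat changed by −0.37 ± 0.26 (SE; interval −0.97 to 0.22; unadjusted p = 0.187). It ran from −0.46 to −0.22 across 14 alternatives, with unadjusted p values from 0.119 to 0.406, and was −0.24 (unadjusted p = 0.307) without IR vehicle replicate 2.

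Catalase is also an enzyme of red blood cells, and erythroid markers were read beside it. Of the 4 tested, 3 fell with insulin by the criteria of the study, as did 1.86% of all genes tested. The summed level of these 4 was 604, 1234 and 406 CPM in IR vehicle and 332, 460.0 and 299 CPM in IR insulin. It was highest in IR vehicle replicate 2 as for Cat, and that library was the highest for 4787 of the 13377 genes tested. In IR vehicle replicate 3 the sum was below that of IR insulin replicate 2, while Cat there was above all insulin libraries. The part of blood content in the Cat values was not tested.

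Sod1 (chromosome 16, 90220754 to 90226329, plus strand) was at 563, 174 and 686 CPM in IR vehicle and 601, 644 and 553 CPM in IR insulin. Apart from IR vehicle replicate 2, the libraries lay close together and the groups overlapped. Sod1 had a fold change of 0.34 ± 0.46 on the log2 scale (SE; interval −0.72 to 1.40; unadjusted p = 0.483). Its direction rested on IR vehicle replicate 2, without which the log2 fold change was −0.05 (unadjusted p = 0.786). The ratio of Cat to Sod1 counts was 14.8 in that library, 3.45 and 2.99 in the other vehicle libraries and 2.76, 2.94 and 2.74 in IR insulin. The insulin ratios were below all the vehicle ratios, by a small margin where IR vehicle replicate 3 is concerned (2.94 against 2.99). This ratio too was chosen after the values were seen, and no background over other pairs of genes was computed. The transcripts of Cat and Sod1 differ in GC content (48.7% and 53.2%).

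**Figure D4:**
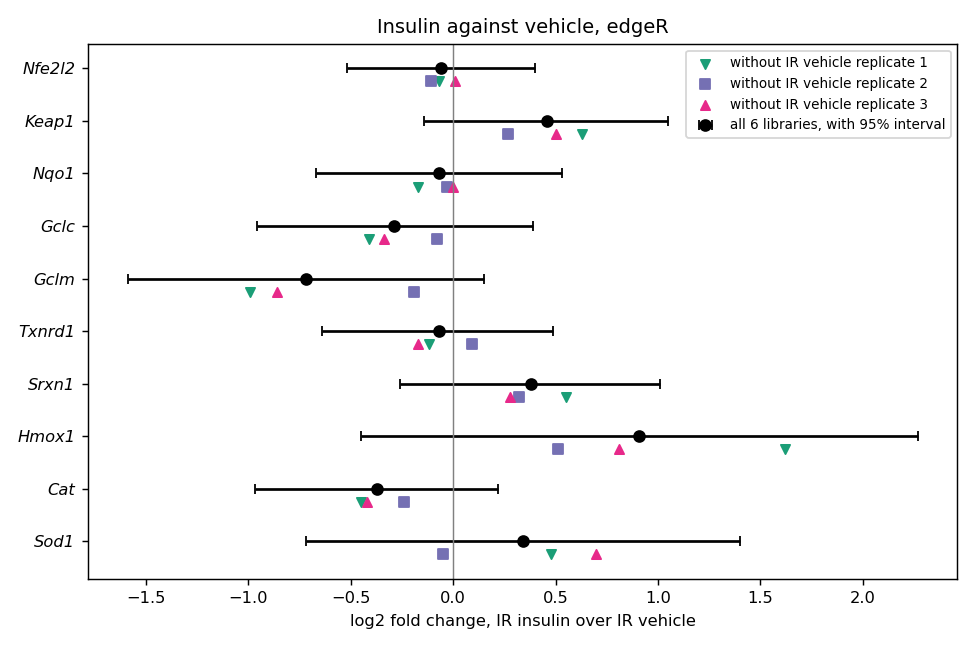
Log2 fold change of each member, IR insulin over IR vehicle, from edgeR with all 6 libraries (black, with 95% interval) and with each vehicle library left out (coloured). All 10 intervals include 0. Gclm moves to −0.19 and Sod1 to −0.05 without IR vehicle replicate 2, and Hmox1 to 1.62 without IR vehicle replicate 1.

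IR vehicle replicate 2 was the highest or the lowest of the 6 libraries for 7 of the 10 members, and it was for 73.2% of all genes tested. It was the highest for Gclc, Gclm, Txnrd1 and Cat, with GC contents of 42.1 to 49.7%, and the lowest for Keap1, Hmox1 and Sod1, with 53.2 to 58.0%. The deviation of each member in this library was set against the median deviation of the 668 or 669 genes in the same of 20 equal bins of GC content. Gclm deviated by 1.32 on the log2 scale where its bin had a median of 0.73, Cat by 0.44 where the bin had 0.22, and Keap1 by −0.78 where the bin had −1.29. Srxn1 (−0.27) lay close to its bin (−0.41), while Nfe2l2 (−0.09) and Nqo1 (0.06) lay below theirs (0.40 for both).

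Sod1 and Hmox1 departed furthest from their bin, in which the median deviation was −0.41. Sod1 deviated by −1.79 and Hmox1 by −2.0. Sod1 has the shortest transcript of the members at 641 bases. Among the 223 genes with the shortest transcripts of that bin, which include both Sod1 and Hmox1, the median deviation was −0.60. Hmox1 was also low in IR vehicle replicate 3, by 0.74, where the bin had a median of 0.07.

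**Figure D5:**
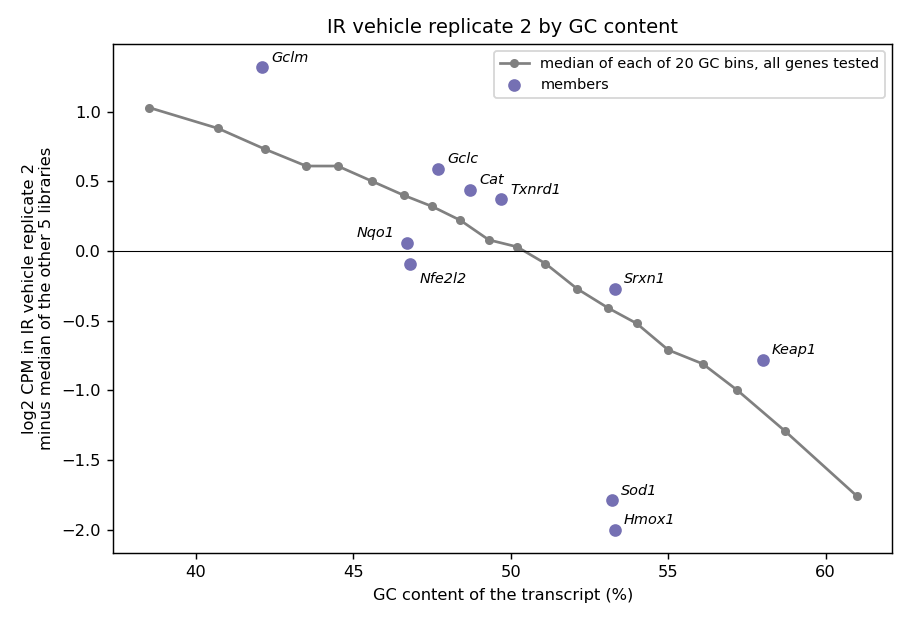
Deviation of IR vehicle replicate 2 (log2 CPM relative to the median over the remaining 5 libraries) against GC content of the transcript; grey points are medians of 20 equal bins of all genes tested, purple points are the members. Sod1 (−1.79) and Hmox1 (−2.0) lie far below the bin median of −0.41 at their GC content, and Gclm (1.32) lies above its bin.

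Levels can be compared between members only per length of transcript, here as CPM per kilobase of the longest coding transcript. On this scale Sod1 and Cat led with medians over the 6 libraries of 908 and 734, and their ranges overlapped (271 to 1070.2 and 581 to 980.2). They were followed, with no overlap with Cat, by Txnrd1 (median 40.3), Gclc (34.4), Gclm (27.9), Hmox1 (26.9) and Srxn1 (26.4). Neighbours within these 5 overlapped in range, and of the 5 only Hmox1, with a range of 7.59 to 64.7, reached down to the next genes. It overlapped both Nfe2l2 and Keap1 and was below both in IR vehicle replicate 2. Nfe2l2 (16.4 to 20.3), Keap1 (7.64 to 16.2) and Nqo1 (3.39 to 4.45) had the lowest medians and did not overlap one another. Nqo1, the classic NRF2 marker, was thus the least abundant of the 10 in these livers.

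The wider system was read from a list of 59 other genes, all of which were tested. Of these, 0 were higher and 2 lower with insulin by the criteria of the study (3.39%, against 2.86% of all genes), and 57 did not pass. Their median log2 fold change was −0.02, equal to that of all genes, with 26 above 0 and 33 below. The balance depended on single vehicle libraries. Without IR vehicle replicate 2, glutathione genes were 1 above 0 and 7 below (median −0.29). Thioredoxin and peroxiredoxin genes were then 1 above and 11 below (median −0.16), beside a median of 0.01 over all genes. Without IR vehicle replicate 3 these splits were 5 and 3 (median 0.29) and 7 and 5 (median 0.13), beside 0.02 over all genes. With all 6 libraries, none of the 59 had an adjusted p under 0.852. The groups did not overlap for 4 of the 59 (6.78%, against 12.3% of all genes), Prdx1, Abcc2 and Abcc4 with insulin lower and Nfe2l1 with insulin higher.

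The 2 genes that passed were Prdx4 and Gsta4. Prdx4 (chromosome X, 155323918 to 155340754, minus strand) encodes the peroxiredoxin of the endoplasmic reticulum. It was at 64.8, 135 and 109.8 CPM in IR vehicle and 64.7, 65.2 and 58.3 CPM in IR insulin. IR vehicle replicate 1 sat among the insulin values and the other vehicle libraries above them. Prdx4 fell by 0.72 ± 0.29 on the log2 scale (SE; unadjusted p = 0.0403), and it passed in 7 of 14 alternatives. The smallest change was with voom, −0.26 (unadjusted p = 0.229). The change was −0.47 (unadjusted p = 0.0789) without IR vehicle replicate 2, −0.67 (unadjusted p = 0.0751) without IR vehicle replicate 3, and −0.73, −0.75 and −0.65 (unadjusted p = 0.0959, 0.0914 and 0.120) without IR insulin replicates 1, 2 and 3.

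Gsta4 (chromosome 9, 78182774 to 78209349, plus strand) encodes a glutathione transferase that conjugates 4-hydroxynonenal, a product of lipid peroxidation. Its values were 17.4, 31.4 and 48.8 CPM in IR vehicle and 12.3, 23.9 and 10.5 CPM in IR insulin, so IR insulin replicate 2 was above IR vehicle replicate 1. Gsta4 fell by 1.06 ± 0.45 on the log2 scale (SE; unadjusted p = 0.0451) and passed in 8 of 14 alternatives. It was −1.08 (unadjusted p = 0.0617) without IR vehicle replicate 2 and −0.65 (unadjusted p = 0.172) without IR vehicle replicate 3. Without IR insulin replicates 1 and 3 it was −0.91 (unadjusted p = 0.134) and −0.83 (unadjusted p = 0.149). With voom it was −0.55 (unadjusted p = 0.265).

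Among 10 genes that control NRF2, none passed. Bach1, the repressor that competes for antioxidant response elements, was at 23.3, 53.5 and 34.1 CPM in IR vehicle and between 20.9 and 25.0 CPM in IR insulin (log2 fold change −0.73 ± 0.32, unadjusted p = 0.0517). IR insulin replicate 3 was above IR vehicle replicate 1. Bach1 passed the criteria in 6 of 14 alternatives, and without IR vehicle replicate 2 its log2 fold change was −0.36 (unadjusted p = 0.111). Sqstm1 encodes p62, which binds KEAP1 and draws it into autophagy. It changed by 0.44 ± 0.28 (SE; unadjusted p = 0.157). Sqstm1 passed when IR vehicle replicate 1 was left out (0.68, unadjusted p = 0.0385), as did 9.81% of all genes then tested. Without IR vehicle replicate 2 it was 0.31 (unadjusted p = 0.251), and with an offset for GC content 0.20 (unadjusted p = 0.443).

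None of 8 glutathione genes passed. Slc7a11, the cystine transporter that feeds glutathione synthesis, was close to the limit of detection, at 1.16, 1.53 and 0 CPM in IR vehicle and 0.185 to 0.495 CPM in IR insulin. Its log2 fold change was −1.19 ± 1.07 (SE; unadjusted p = 0.302), −1.79 (unadjusted p = 0.0174) without IR vehicle replicate 3, the library at 0, and −0.55 (unadjusted p = 0.65) without IR vehicle replicate 2. With voom it was −0.12 (unadjusted p = 0.915). With IR vehicle replicate 3 left out, 6.51% of all genes then tested met the study's criteria. The glutaredoxin gene Glrx had −0.32 ± 0.29 (unadjusted p = 0.301). Of 12 thioredoxin and peroxiredoxin genes, Prdx4 passed, and Prdx6, the next by p, had −0.33 ± 0.23 (unadjusted p = 0.186).

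None of 6 genes of NADPH supply passed, the cofactor on which both the glutathione and the thioredoxin systems draw. Idh1 (isocitrate dehydrogenase) and Pgd (of the pentose phosphate pathway) had log2 fold changes of −0.39 ± 0.25 and 0.35 ± 0.24 (SE; unadjusted p = 0.161 and 0.186). Of 3 genes for other superoxide dismutases and their copper chaperone, none passed. Ccs, which loads copper into SOD1, was at 107, 54.5 and 142 CPM in IR vehicle and 143, 128 and 126 CPM in IR insulin, lowest in IR vehicle replicate 2 as Sod1 was. The log2 fold change of Ccs was 0.38 ± 0.34 (SE; unadjusted p = 0.296). Extracellular Sod3 was at 2.76 CPM in IR vehicle replicate 2 and 16.0 to 26.9 CPM elsewhere, and its fold change was 0.68 ± 0.62 on the log2 scale (SE; unadjusted p = 0.308).

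Of 14 detoxification targets, Gsta4 passed and 13 did not. Of the 14, 12 had log2 fold changes below 0, against 51.4% of all genes tested, with a median of −0.34, and 4 of the 14 lay within 0.02 of 0. This direction rested on IR vehicle replicate 3, the highest library for 3130 of the 13377 genes tested and for 8 of these 14. Without it 6 were below 0 and 8 above, with a median of 0.09. Gstm1 and Cbr1, for a glutathione transferase and a carbonyl reductase, are named because they passed when IR vehicle replicate 2 was left out. In that setting 3.69% of all genes then tested passed. Gstm1 was at 358, 77.0 and 786 CPM in IR vehicle and 239.6 to 387 CPM in IR insulin, and Cbr1 was at 34.2, 14.2 and 121 CPM and 31.9 to 40.7 CPM. For both, the insulin libraries lay between IR vehicle replicates 2 and 3. Their log2 fold changes were −0.45 and −0.69 with all libraries (unadjusted p = 0.525 and 0.327), −0.94 and −1.14 without IR vehicle replicate 2 (unadjusted p = 0.0356 and 0.0404), and 0.45 and 0.53 without IR vehicle replicate 3 (unadjusted p = 0.472 and 0.209). The exporter gene Abcc4 was at 2.54, 2.89 and 3.43 CPM in IR vehicle and 2.21, 1.86 and 1.57 CPM in IR insulin (−0.65 ± 0.33, unadjusted p = 0.0857). Of 6 haem and iron genes none passed, and 5 had log2 fold changes above 0. Blvrb and Slc48a1, for a biliverdin reductase and a haem transporter, had 0.29 ± 0.28 and 0.34 ± 0.36 (SE; unadjusted p = 0.337 and 0.367). IR vehicle replicate 2 was the lowest library for 4999 of the 13377 genes tested and for all 6 haem and iron genes. Without that library 3 were above 0 and 3 below, with a median of −0.01 against 0.17, and with an offset for GC content the split was also 3 and 3.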

How the data were processed

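Libraries were made by the authors with the NEBNext Ultra kit and read on an Illumina HiSeq. Bowtie2 2.2.3 and mm10 are named, per the labels, for the alignment. The deposited table holds raw read counts per gene, neither normalized nor pooled by the authors. The counting program and its strand setting are not given in the sources used here. Bowtie2 by itself aligns without splicing, so reads across exon junctions can be lost.

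Groups and replicate numbers came from the labels. Counts were tested with edgeR 4.0.16 (glmQLFit and glmQLFTest, R 4.3.3), TMM scaling and filterByExpr (minimum count 10, minimum total 15), without a covariate, with Benjamini-Hochberg adjustment over 13377 genes. The biological coefficient of variation was 0.357. Intervals (95%) use the SE derived from the F statistic. Coordinates, overlaps, length and GC content of the longest coding transcript came from GENCODE M21 (build 38), which held 99.9% of the table's gene identifiers. Scripts were tested on simulated data.

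The members and lists were chosen with earlier results of these data known. Named are all members, the 2 genes with the smallest p of each of 7 subgroups of the wider list, and others past the study's criteria; other genes were picked after their values were seen. Alternatives were RLE and upper-quartile scaling, no filter, DESeq2 1.42.0 (the authors' tool), limma 3.58.1 voom with sample weights, a loess offset (span 0.5) on GC content, a replicate block and leaving out each library. An offset on GC content and length was added after seeing the data. A marker gene of the erythroid list is not reported here. Marker lists not named in the report had summed levels of 3.62 to 70.8 CPM (neutrophil), 97.0 to 170 (endothelial), 115 to 219 (stellate), 10116 to 18431 (pericentral) and 627 to 2186 (periportal). Of their tested genes 0 passed the study's criteria, and only 2 of the 5 neutrophil genes were tested.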

Additional observations from a re-analysis of the deposited data

How the results depend on the processing

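No gene reached an adjusted p under 0.05 under any of 14 alternatives, with 99 to 1349 genes at an unadjusted p under 0.05. Leaving out 1 library moved the count past the study's criteria over 99 to 1349 genes (1349 without IR vehicle replicate 1), that of the members over 0 to 2 (Gclm and Hmox1 without IR vehicle replicate 1) and that of the other 59 genes over 0 to 4. Samples with the same replicate number did not deviate together (r = −0.039, 0.0688 and 0.0174), so the numbers were not taken as pairs. With a replicate block, 1 member (Hmox1, 1.04, unadjusted p = 0.0238) and 1 other gene (Gsta4) passed, and 321 genes in all. The split was then 203 higher and 118 lower, against 134 and 249. With voom 0 of the other genes passed, with 213 in all (108 higher and 105 lower), and with upper-quartile scaling 1 did. Without the filter on low counts 742 genes passed.

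Of 140 member values under alternatives, 125 kept their direction and side of the criteria, 3 newly passed and 12 changed sign. Nfe2l2 was 0.01 with a GC offset and without IR vehicle replicate 3, and 0.0 without IR insulin replicate 1. Nqo1 was 0.09 with voom, 0.01 with a GC offset, 0.01 with a GC and length offset, 0.0 without IR vehicle replicate 3 and 0.03 without IR insulin replicate 3. Keap1 was −0.01 with a GC and length offset. Txnrd1 was 0.09 without IR vehicle replicate 2 and 0.05 without IR insulin replicate 1. Sod1 was −0.05 without IR vehicle replicate 2. Leaving out 1 library gave ranges of −0.11 to 0.01 for Nfe2l2, −0.17 to 0.03 for Nqo1, −0.19 to 0.09 for Txnrd1 and −0.05 to 0.70 for Sod1. The cause was not tested. Read depth was lowest for Slc7a11 (0 to 25 reads a library) and, among the members, for Nqo1 (102 to 146).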
